A study of Bos taurus with 48 samples.

Results

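The genes described here are 200 abundant genes of the calf liver whose level was many times lower in the mammary gland of calves of the same study. They were chosen by their levels in the restricted-nutrition libraries: a mean of at least 20 CPM (counts of the gene per 1000000 gene counts of the library) over 6 livers, and at least 50 times the mean plus 0.1 CPM of both mammary parenchyma and mammary fat pad. Of 27607 genes in the deposited data, 297 met both limits, and the 200 of highest mean in restricted liver were kept. Each member is called here by its rank in that order, apart from 4 that are given by identifier, because the identifiers carry no gene names. CPM is not corrected for transcript length, so the rank mixes the number of transcripts with their length.

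The libraries came from dairy calves on 3 diets. Unlimited calves drank milk replacer freely at 3 meals of 30 min a day, restricted calves had their daily milk replacer cut, and control calves were given a standard ration. Total RNA, depleted of ribosomal RNA, was sequenced from liver (6 unlimited, 6 restricted and 4 control libraries), from mammary parenchyma (6, 6 and 3) and from mammary fat pad (6, 6 and 4), which makes 47 libraries in 9 groups; 1 further control parenchyma sample was not analysed here. Parenchyma is the epithelial tissue of the gland, and the fat pad is the adipose tissue into which it grows. Breed, age, sex and any manipulation other than diet are not stated in the sources used here, and the labels do not say whether each library of a group came from a different calf, so a p-value here speaks of the spread among these libraries, which may be technical.

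Liver parenchyma is made largely of hepatocytes, which synthesise and secrete most proteins of blood plasma, including carriers, clotting factors and apolipoproteins. Hepatocytes also take up nutrients arriving from the gut, make glucose, urea, bile acids and lipoproteins, and detoxify foreign compounds, and much of this work depends on genes that other tissues scarcely use. Feeding level is known to act on many of these pathways in mammals. Which members belong to which pathway is not described, since roles cannot be given to unnamed identifiers, and the tissue labels could not be set against marker genes for the same reason.

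The limits cut through a continuum. The highest mean in restricted liver was 52087 CPM and that of the last member kept was 131 CPM, while the next 2 genes in the order stood at 127 and 126 CPM. The lowest ratios inside were 50.02 and 50.7 times, and the highest ratio outside among genes of the same liver level was 45.0 times. A further 843 genes reached the same liver level and missed the ratio, 13 of them at 25 to 50 times. The median ratio of the members in restricted calves was 1113 times, and 28 of the 200 lay between 50 and 100 times. These values describe the choice and test nothing.

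Depth was 5.59 to 24.2 M gene counts per library over the 47 libraries (M, 1000000 counts) and 5.59 to 17.4 M over the livers. In liver, 21.7% to 40.5% of the uniquely placed reads were assigned to genes. Libraries 3 and 6 of the unlimited livers stood at the low end of their group in assigned share (25.5% and 26.0%, the other unlimited livers 28.8% to 37.1%), and so did control liver 18 (21.7%, the other control livers 27.8% to 34.4%). Control liver 1 and control fat pad 1 were the only libraries with reads in the unaligned entry. The titles of control fat pad libraries 1 and 2 carry the letters PAR, which no other fat pad title does, so control fat pad is given as values only and enters no test. No 2 libraries of the same group agreed within counting noise; libraries of different groups were not compared in this way.

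Together the 200 members took a large share of all liver gene counts and a minute one of the mammary counts. Their summed share was 26.7% ± 4.17 in unlimited liver (SD, n = 6), 32.3% ± 2.42 in restricted liver (SD, n = 6) and 27.3% ± 4.84 in control liver (SD, n = 4). The unlimited livers held 20.6%, 22.6%, 27.3%, 29.0%, 30.4% and 30.4%, and the control livers 23.0%, 25.6%, 26.2% and 34.2%. The unlimited and control livers overlapped over most of their range, with unlimited libraries 3 and 6 and control library 18 at the low end and control library 21 at the top. The restricted livers ran from 28.6% to 34.8%, but those libraries chose the members, which by itself favours a high restricted sum. In bulk tissue a smaller number of hepatocytes and less RNA per hepatocyte cannot be told apart.

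In the mammary gland the same 200 genes took less than 0.2% of the counts in every library. The summed share was 0.0337% ± 0.00390 in unlimited, 0.0343% ± 0.00613 in restricted and 0.0417% ± 0.00977 in control parenchyma (SD, n = 6, 6 and 3). In the fat pad it was 0.0432% ± 0.00765 in unlimited, 0.0436% ± 0.0115 in restricted and 0.0659% ± 0.0454 in control calves (SD, n = 6, 6 and 4). The wide spread of control fat pad came from library 18 at 0.129% and library 21 at 0.0692%, against 0.0271% and 0.0387% in libraries 1 and 2.

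**Figure D1:**
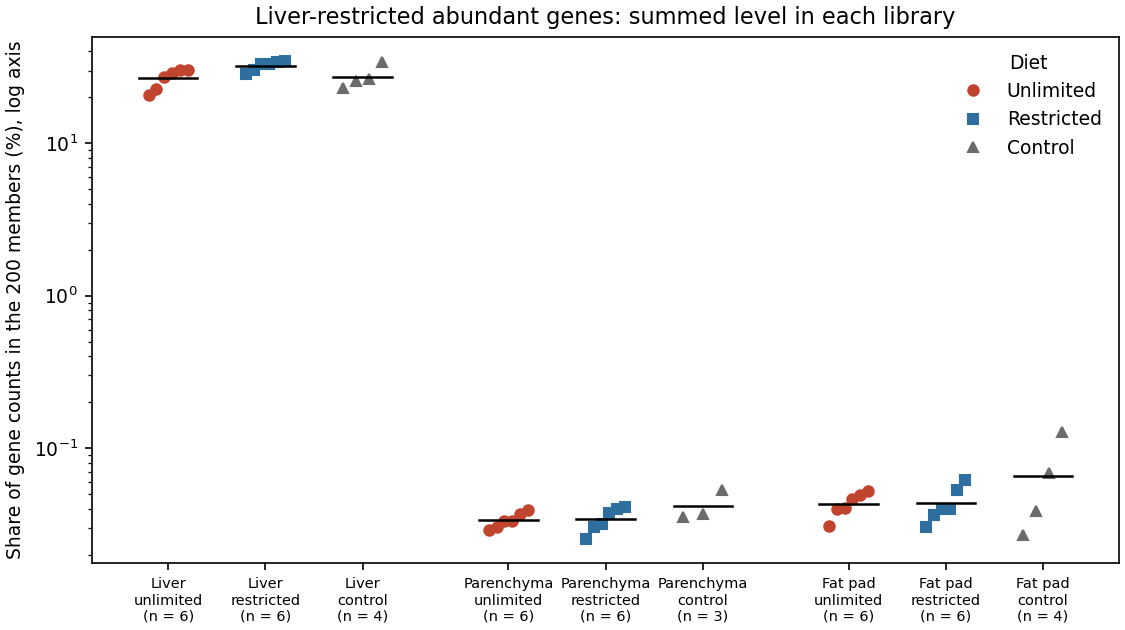
Share of all gene counts held by the 200 members in each of the 47 libraries, in percent on a log axis, by tissue and diet. Points are libraries and bars are group means; liver libraries lie between 20.6% and 34.8% and every mammary library lies below 0.2%.

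The sum was carried by a few genes. The 10 members of highest restricted mean held 54.0% of the members' CPM in unlimited liver, 54.1% in restricted liver and 52.6% in control liver. Of those 10, 9 were also among the first 10 members of unlimited liver and 9 among those of control liver. Of the 20 most abundant genes of the liver, 13 in unlimited, 12 in restricted and 12 in control calves were members, and of the 100 most abundant 44, 53 and 48 were.

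The member of rank 1 had 18507 to 53641 CPM in the unlimited livers with a median of 38288 CPM, and 31233 to 51120 CPM with a median of 35351 CPM in the control livers. It ran from 43666 to 56882 CPM in the restricted livers. In the mammary gland its mean was 5.51 ± 4.64 CPM over the unlimited parenchyma libraries (SD, n = 6) and 5.69 ± 2.88 CPM over the unlimited fat pads (SD, n = 6). Its unlimited livers were spread more widely than the others and spanned the whole range of the control livers; the log2 fold change of unlimited over control was -0.14 ± 0.40 (SE), adjusted p = 0.945 by edgeR. Next in order, rank 2 had 18757 to 44586 CPM in unlimited liver (median 33851) and 16260 to 35133 CPM in control liver (median 24142), again with most of the range shared (log2 fold change 0.25 ± 0.40 SE, adjusted p = 0.893 by edgeR). Rank 3 averaged 20404 ± 4509 CPM in unlimited liver (SD, n = 6) and 18048 ± 8222 CPM in control liver (SD, n = 4), where library 21 stood at 30262 CPM and the other 3 control livers at 12686 to 15454 CPM.

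All 200 members reached a mean of 20 CPM in unlimited and in control liver as well as in the restricted liver that chose them. The median member stood at 393 CPM in unlimited, 454 CPM in restricted and 357 CPM in control liver. In single libraries 194 of the 200 stayed at 20 CPM or more in all 16 livers. For 197 of the 200 the lowest of the 16 liver libraries was above the highest of the 31 mammary libraries. The exceptions were the members of rank 152, 187 and 200, the first through 1 unlimited liver, the second through 1 restricted liver at 7.90 CPM, and the last through 1 control fat pad library. Across the 16 livers the highest library was a median of 2.80 times the lowest, and for 14 members it was 10 times or more. These counts over single libraries include the restricted libraries that chose the members, which favours a high liver and a low mammary level. The same counts were not taken over all genes, so those of the members are descriptions and test nothing.

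The liver restriction chosen in restricted calves was then set against the diets that the choice had not used. Of the 200 members 185 kept at least 50 times both mammary tissues in unlimited calves, with a median of 954 times and quartiles of 245 and 1977 times. In control calves 183 kept it, with a median of 1082 times and quartiles of 251 and 2239 times, and 175 kept it in all 3 diets. Ratios of 1000 times or more were reached by 99 members in unlimited, 107 in restricted and 106 in control calves. The 0.1 CPM added to the mammary mean is above the level of 3 counts over any mammary group (0.0330 to 0.0678 CPM in the unlimited and control groups), so a ratio of a member with no mammary counts is a lower value than the counts alone would allow.

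The members that missed 50 times in unlimited calves were mostly those near the limit from the start, and in control calves less clearly so. Of the 15 under it in unlimited calves, 14 had a restricted ratio under 100, and parenchyma was the higher mammary tissue for 11. The lowest was the member of rank 92 at 14.8 times, with 267 ± 117 CPM in unlimited liver and 18.0 ± 8.76 CPM in unlimited parenchyma (SD, n = 6 each). Its restricted means, which the choice used, were 543 CPM in liver and 8.13 CPM in parenchyma. Of the 17 under 50 times in control calves, 11 had a restricted ratio under 100, and 7 were also under 50 times in unlimited calves. For 10 of the 17 the higher mammary mean was more than 2 times that of restricted calves. For 4 the restricted liver mean was more than 2 times the control one. In unlimited calves each held for 3 of the 15.

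In control calves 3 members lay below 10 times, and all 3 did so through a single control fat pad library. Rank 200 had 134 ± 75.6 CPM in control liver (SD, n = 4), and in control fat pad 0.170, 0.551, 1.08 and 280 CPM. Rank 193 had 131 ± 34.1 CPM in control liver (SD, n = 4), and in control fat pad 0.682, 0.787, 1.31 and 88.2 CPM. Rank 91 had 683 ± 253 CPM in control liver (SD, n = 4), and in control fat pad 0, 0, 0.455 and 311 CPM. The high value of each was library 18; the other 3 fat pad libraries lay near 1 CPM or below. In that library 8 members stood at 10 times or more the highest of the other 3 plus 0.1 CPM, and in none of the other 3 did any member do so. Without it 188 of 200 members kept 50 times in control calves, and with parenchyma alone as the mammary tissue 189 did.

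**Figure D2:**
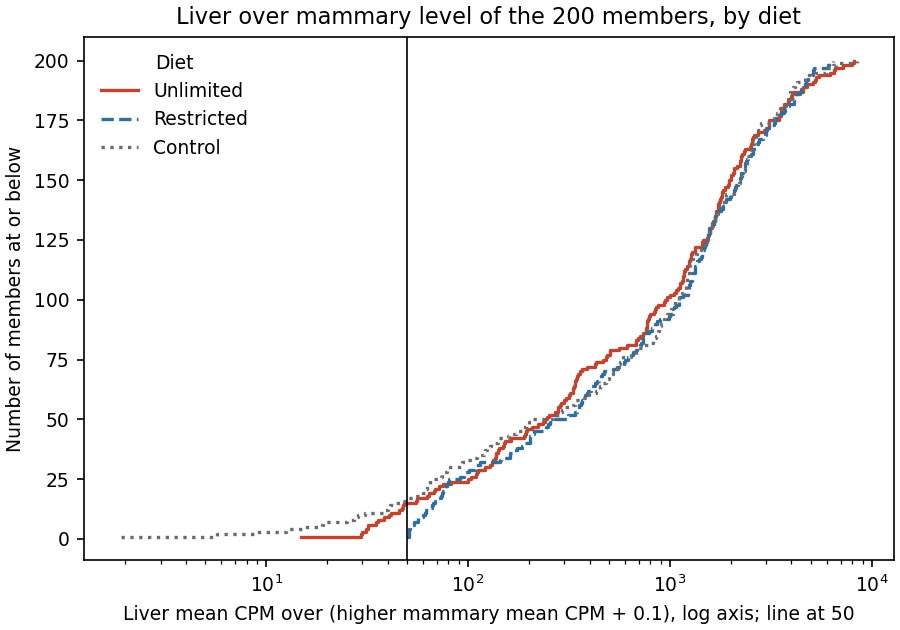
Number of the 200 members (vertical axis) whose liver mean CPM over the higher mammary mean CPM plus 0.1 lies at or below the value on the horizontal log axis, for each diet. The vertical line marks 50 times, which all members reach by choice in restricted calves; the unlimited curve begins at 14.8 times and the control curve at 1.90 times.

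Calls gene by gene in the other diets describe the same distance and cannot support it, because most members entered the test only through the liver libraries in which they were high. Of the 199 members tested in unlimited liver against parenchyma, 163 would not have passed the filter on low counts in the parenchyma libraries alone; against the fat pad this was 164 of 199, and in control liver against control parenchyma 156 of 200. A gene that enters in this way had to differ. In unlimited calves edgeR's quasi-likelihood test called the 199 tested members higher in liver than in parenchyma (Benjamini-Hochberg adjusted p under 0.05), where 31.7% of all 14675 genes tested were called higher in liver. Against the fat pad it called the 199 tested members, where 32.5% of all 15161 genes were called higher. In control calves it called the 200 members higher in liver than in parenchyma, where 25.3% of all 14986 genes were called higher. The liver libraries of each tested member lay above its mammary libraries in these comparisons, as they did for 15.3% of all genes against unlimited parenchyma, 11.7% against unlimited fat pad and 15.5% against control parenchyma. Since the filter decided which genes could enter, the members' counts are not read against these shares. The member outside the unlimited tests, of rank 152, did not pass the filter because of a single liver.

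That member was variable in liver. Its unlimited livers held 24.5, 124, 130, 195 and 198 CPM, and unlimited liver 15 held 0.127 CPM, which is 2 counts. Its control livers held 13.1, 56.3, 101 and 209 CPM, and its restricted livers 130 to 450 CPM. Unlimited liver 15 is the one liver of 16 where it was close to its mammary level.

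The mammary level of the members was low and unevenly spread. Their median mean was 0.225 CPM in parenchyma and 0.220 CPM in fat pad of unlimited calves, and 151 of 200 lay under 1 CPM in each. No count at all was seen for 14 members in the 6 unlimited parenchyma libraries and for 13 in the 6 unlimited fat pad libraries, which allows a level of up to 0.0330 and 0.0340 CPM (3 counts over the group, counting error only). In control calves 43 members had no count in the 3 parenchyma libraries, where the limit is 0.0678 CPM, and 14 had none in the 4 fat pad libraries, where it is 0.0483 CPM. At the other end 1 member in parenchyma and 4 in fat pad averaged 20 CPM or more in unlimited calves, and 6 and 6 did in control calves.

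Set against the liver level of the same gene, the mammary levels shared no single proportion. Among the 50 members of highest restricted liver mean, the unlimited parenchyma level was a median of 241 parts per 1000000 of the unlimited liver level; it lay between 50 and 200 parts for 22 of them, above 1000 for 11 and under 50 for 2. In unlimited fat pad the median was 288 parts, with 19 of the 50 between 50 and 200, 12 above 1000 and none under 50. Over all 200 members the rank correlation of the mammary mean with the liver mean was 0.379 for parenchyma and 0.451 for fat pad, and that of fat pad with parenchyma was 0.738. These are descriptions over genes that share libraries and depth. How much of the mammary level was made in the gland and how much came from blood, or from other libraries of the same sequencing pool, was not tested.

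**Figure D3:**
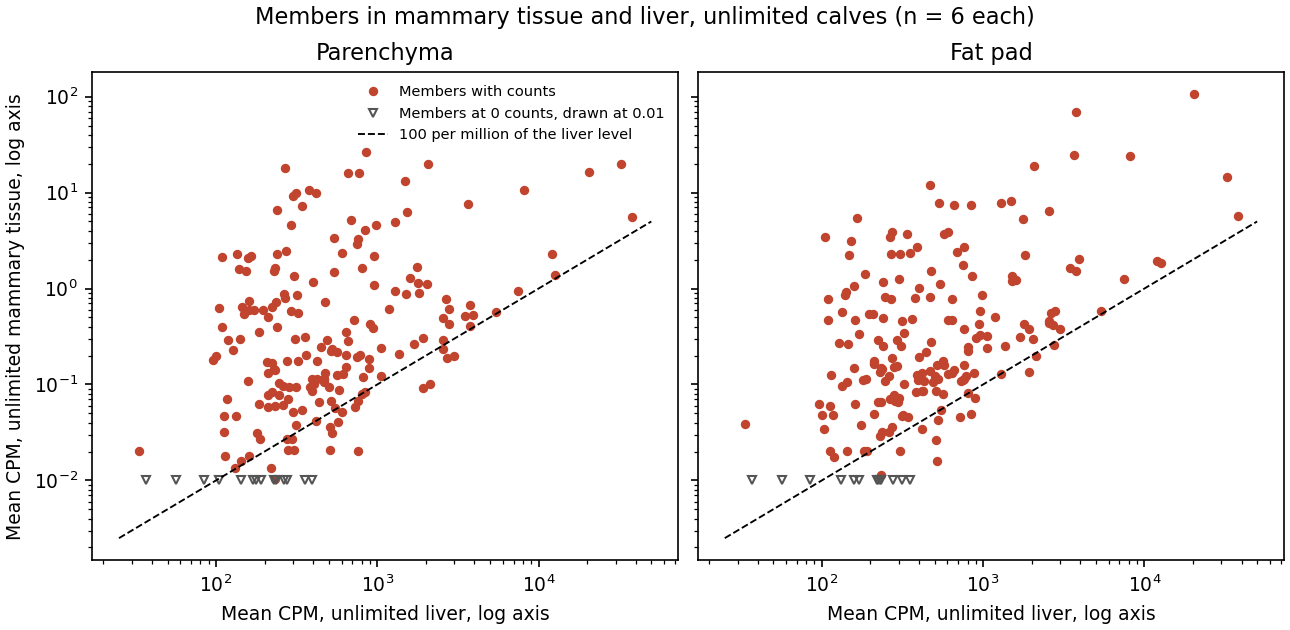
Mean CPM of each member in parenchyma (left) and fat pad (right) against its mean CPM in liver, unlimited calves, n = 6 libraries each, log axes. Open triangles are members with no mammary count (14 in parenchyma, 13 in fat pad), and the dashed line marks 100 parts per 1000000 of the liver level, along which many of the abundant members lie while others stand far above it.

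A few members had a clear mammary level, and they differed in how it was spread over the mammary tissues and diets. In the fat pad the member of rank 3 averaged 105 ± 29.7 CPM in unlimited, 127 ± 64.0 CPM in restricted and 37.4 ± 21.2 CPM in control calves (SD, n = 6, 6 and 4). In parenchyma it averaged 16.3 ± 5.06 CPM in unlimited, 23.3 ± 13.2 CPM in restricted and 32.2 ± 18.1 CPM in control calves (SD, n = 6, 6 and 3). Its 6 unlimited fat pads (70.1 to 141 CPM, median 109) lay above all 6 unlimited parenchyma libraries (10.7 to 23.9 CPM, median 14.9). Rank 16 was seen in the fat pad of unlimited calves at 22.4 to 102 CPM (median 75.4) and of restricted calves at 21.1 to 61.1 CPM (median 24.2), whereas the 4 control fat pads held 0.341 to 0.994 CPM. In parenchyma it averaged 0.411 CPM in unlimited and 0.234 CPM in control calves, so that the control fat pads stood near the parenchyma level. Control fat pads 18 and 21, whose titles do not carry PAR, were as low as control fat pads 1 and 2, which do.

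The member of rank 25 was the opposite case, with its higher mammary values in control calves. In parenchyma it held 7.95 to 36.7 CPM (median 18.3) in unlimited and 14.05 to 91.8 CPM (median 26.2) in restricted calves. Control parenchyma held 85.4, 89.6 and 168 CPM, so the restricted libraries reached into the control range. In fat pad it held 3.94 to 45.8 CPM (median 17.8) in unlimited, 4.62 to 46.3 CPM in restricted and 23.0 to 350 CPM in control calves. Its liver means were 2070 ± 726 CPM in unlimited and 2453 ± 259 CPM in control calves (SD, n = 6 and 4). Rank 2 had 6.99 to 36.0 CPM (median 16.0) in unlimited and 5.99 to 14.7 CPM in restricted parenchyma. Its control parenchyma libraries held 1.91, 2.62 and 4.10 CPM. Its fat pads held 6.59 to 23.9 CPM in unlimited, 7.62 to 19.0 CPM in restricted and 7.66 to 11.3 CPM in control calves. These mammary differences between diets were picked for their level and were not tested.

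Unlimited over control was the liver comparison that the choice had not touched, and in it no member was called by edgeR: 0 of 200 were higher, where 0.411% of all 14114 genes tested were called higher, and 0 were lower, where 0.0709% were called lower. At an unadjusted p under 0.05 there were 9 members higher and 12 lower, where 5.64% of all genes were higher and 4.34% lower at that p. DESeq2 called 3 members higher and 2 lower, where it called 1.5% of all genes higher and 0.504% lower. Limma voom called 1 member higher and 0 lower, where it called 0.255% of all genes higher and 0.0425% lower. These small counts are near what the shares over all genes give for 200 genes. The lowest adjusted p of any member by edgeR was 0.135. Only 2 members had livers that did not overlap between unlimited and control calves, 1 in each direction, where 2.85% of all genes tested did not overlap.

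The median log2 fold change of the members was -0.14, with quartiles of -0.36 and 0.07, against 0.00 for all genes tested; 69 members lay above 0 and 131 below. With total counts as the scale both medians moved up together, the members' to -0.02 with 96 above 0 and that of all genes to 0.10. The lean moved towards or past 0 when the control liver of largest summed share or the unlimited livers of smallest summed share were left out. These removals were picked by the libraries' shares, which by itself favours such a shift. Control liver 18 and unlimited livers 7 and 11 lay at the opposite ends of the summed share. The medians without them are not given here, so only removals that favour a shift towards 0 are shown. Without control liver 21, the control with the largest summed share, the median turned to 0.03 with 111 above 0, and without unlimited livers 3 and 6, those of the smallest summed share and assigned share in their group, it was -0.00 with 99 above 0. The precision for a single member was limited: the median SE was 0.30 on the log2 scale.

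**Figure D4:**
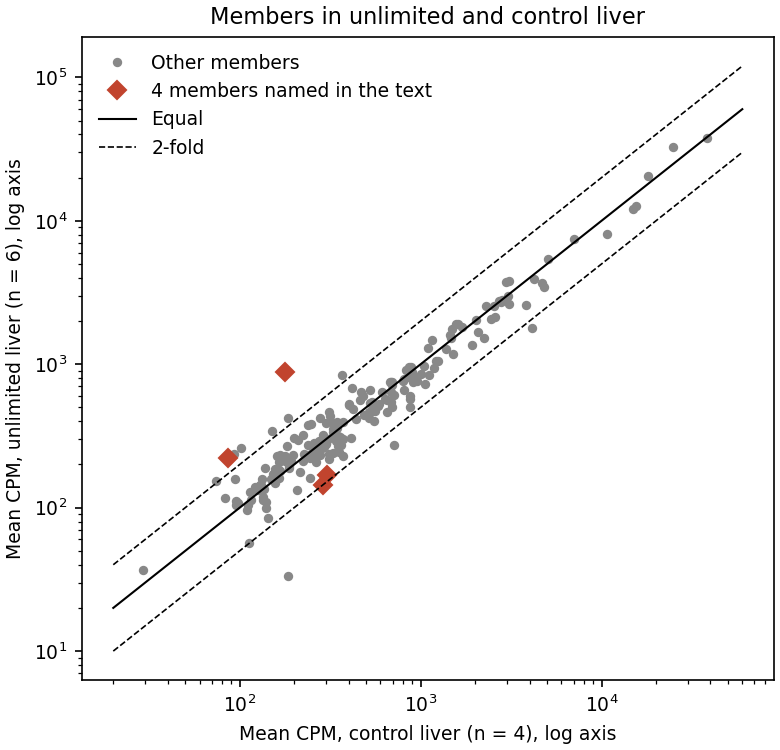
Mean CPM of each of the 200 members in unlimited liver (vertical axis, n = 6) against control liver (horizontal axis, n = 4), log axes. The solid line marks equal means and the dashed lines 2-fold; 8 members lie above and 4 below the dashed lines, and the 4 diamonds are the members named in the text, none of which passed the edgeR test.

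The 2 members of lowest p on each side are given with their values. ENSBTAG00000015214, of rank 99, held 330, 850, 876, 923, 987 and 1330 CPM in the unlimited livers and 50.9, 95.0, 180 and 383 CPM in the control livers. Only unlimited liver 6 and control liver 1 overlapped, and the restricted livers, at 147 to 921 CPM, ran across both. Its log2 fold change was 2.13 ± 0.59 (SE) with an adjusted p of 0.192 by edgeR, and over the alternatives the adjusted p ran from 0.0232 to 0.456. ENSBTAG00000015047, of rank 127, held 127, 218, 226, 229, 256 and 273 CPM in the unlimited livers and 45.1, 57.2, 111 and 133 CPM in the control livers. Again unlimited liver 6 alone reached into the control range, and the restricted livers stood at 254 to 373 CPM. Its log2 fold change was 1.25 ± 0.33 (SE) with an adjusted p of 0.156 by edgeR, and 0.0140 to 0.319 over the alternatives.

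On the other side ENSBTAG00000048013, of rank 122, held 105, 112, 121, 158, 180 and 183 CPM in the unlimited livers and 226, 245, 276 and 401 CPM in the control livers. The groups did not overlap, and the restricted livers at 201 to 408 CPM covered the control range. Its log2 fold change was -1.15 ± 0.28 (SE) with an adjusted p of 0.135 by edgeR, and 0.0116 to 0.436 over the alternatives. ENSBTAG00000023419, of rank 119, held 119, 132, 149, 178, 183 and 253 CPM in the unlimited livers and 216, 319, 328 and 356 CPM in the control livers, where 1 unlimited liver overlapped 1 control liver. The restricted livers held 154 to 519 CPM. Its log2 fold change was -0.96 ± 0.27 (SE) with an adjusted p of 0.190 by edgeR, and 0.0348 to 0.523 over the alternatives. All 4 stayed under 1 CPM in each of the 31 mammary libraries, and ENSBTAG00000023419 was counted in 1 of them only.

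The comparisons with restricted liver are given as ratios of mean CPM with no test, since a gene picked for a high restricted mean leans towards restricted by the choice alone. The median log2 ratio of unlimited over restricted was -0.25 over the members, with 44 higher and 156 lower in unlimited liver, and 3 and 16 at 2-fold or more; over 13714 liver genes of 1 CPM or more the median was 0.18. The median log2 ratio of restricted over control was 0.25, with 150 higher and 50 lower in restricted liver, and 19 and 4 at 2-fold or more; over the same liver genes the median was -0.07. Of the 3 diets restricted liver had the highest mean for 128 members, unlimited for 35 and control for 37. The 3 means of a member lay within 1.5-fold of each other for 117 members and within 2-fold for 167, and for 4 they were 4-fold or more apart.

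Those 4 members differed in where they were high. Besides ENSBTAG00000015214 they were the members of rank 93, 179 and 180. Rank 93 averaged 238 ± 99.8 CPM in unlimited, 524 ± 141 CPM in restricted and 92.5 ± 41.0 CPM in control liver (SD, n = 6, 6 and 4). Rank 180 averaged 36.7 ± 32.1, 157 ± 80.4 and 29.0 ± 18.4 CPM in the same order, and had no count in any parenchyma library. Rank 179 averaged 33.4 ± 22.7 CPM in unlimited, 158 ± 76.2 CPM in restricted and 186 ± 161 CPM in control liver; its unlimited livers (4.31 to 57.3 CPM, median 37.4) lay below all restricted livers (67.3 to 252 CPM), while its control livers (8.23 to 380 CPM) overlapped with both. These members were picked for a wide span over the diets, and the restricted livers chose the members. Separation from restricted liver is thus favoured by the choice, and its share over all genes was not taken.

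The members' spread from library to library had a median near that of all liver genes of 1 CPM or more. Those genes were not matched to the members in level, so the likeness does not show equal variability. Over the 10 unlimited and control livers their coefficient of variation (CV) had a median of 28.6% and quartiles of 22.3% and 37.8%, and over 13832 genes of 1 CPM or more the median was 28.9%. Within groups the members' median CV was 26.8% in unlimited, 17.1% in restricted and 24.5% in control liver. Unlimited liver 6 was the lowest of its 6 for 112 members and lay below the group median for 156, and unlimited liver 3 lay below it for 154. Control liver 21 was the highest of its 4 for 101 members. The part of RNA quality or dissection in these library differences was not tested.

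At the steady end the member of rank 110 had a CV of 5.02%, with 360 ± 17.7 CPM in unlimited, 372 ± 42.5 CPM in restricted and 345 ± 15.8 CPM in control liver (SD, n = 6, 6 and 4). Rank 21 averaged 2798 ± 261, 2878 ± 110 and 2824 ± 303 CPM in the same order, and the member of rank 188 averaged 141 ± 17.6, 147 ± 20.6 and 131 ± 10.5 CPM. The livers of the 3 diets overlapped for each of these members.

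At the variable end the member of rank 67 split the livers within every diet. It held 15.7 to 249 CPM in 9 livers and 1042 to 1721 CPM in 7, with a gap of 4.19-fold between the nearest livers on either side. The higher range held 1 of 6 unlimited, 4 of 6 restricted and 2 of 4 control livers. Rank 137 held 67.4 to 1672 CPM in unlimited (median 269), 119 to 558 CPM in restricted (median 259) and 461 to 1629 CPM in control liver (median 698). In both, the range within a diet was larger than the distance between the diet medians of unlimited and control livers.

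**Figure D5:**
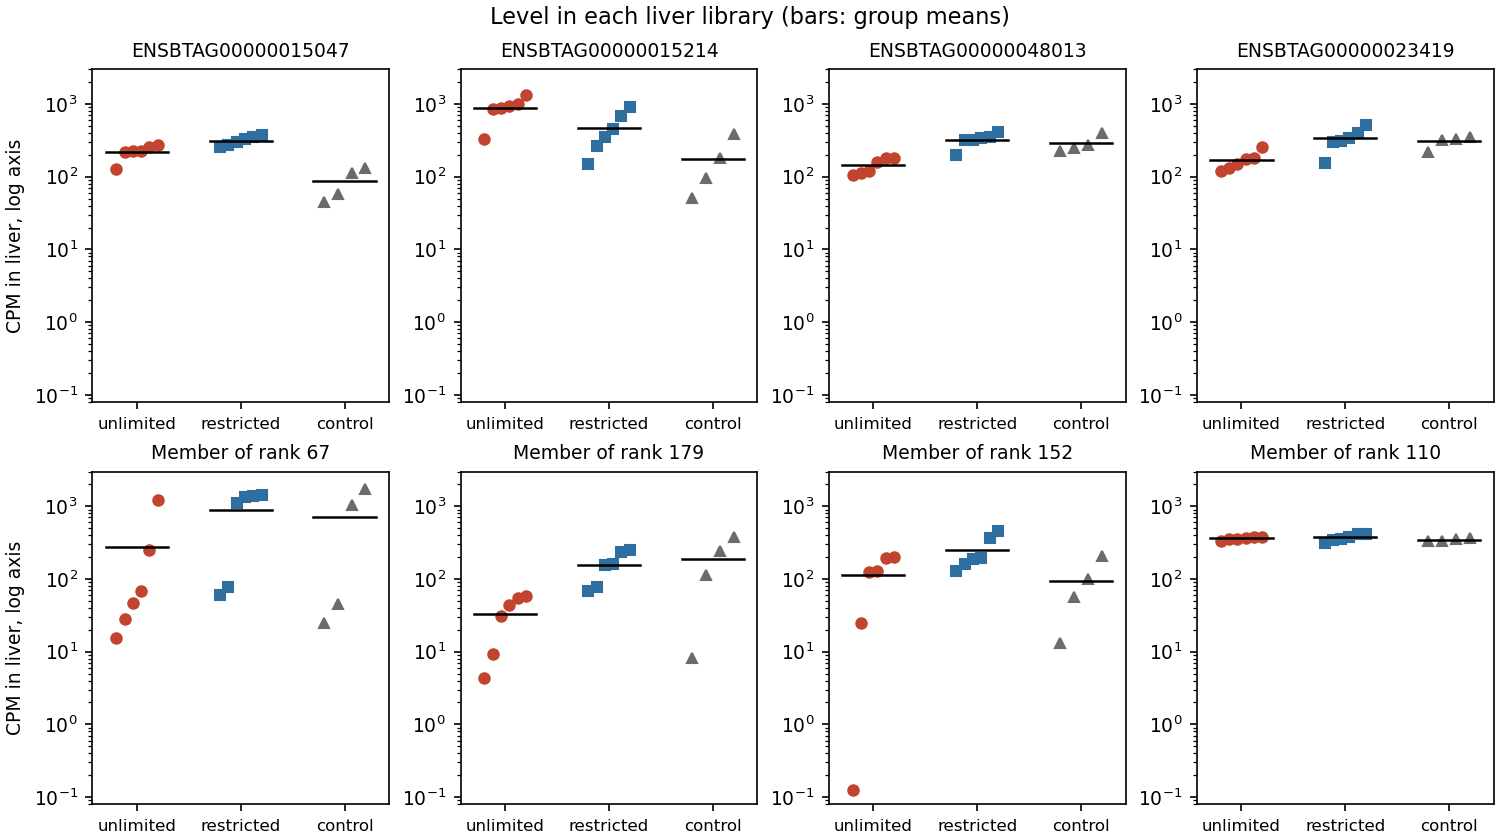
CPM in each liver library, on a log axis, of the 4 members named by identifier (upper row) and of the members of rank 67, 179, 152 and 110 (lower row), by diet. Points are libraries and bars are group means; ENSBTAG00000048013 has no overlap between unlimited and control livers, the member of rank 67 divides the livers of each diet, and the member of rank 110 lies between 312 and 420 CPM throughout.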

How the data were processed

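The authors deposited 1 table of read counts per gene and library; per the submitters' processing notes the tools were FastQC, STAR 2.7.8, HTSeq 1.99.2 and DESeq2 on genome build ARS-UCD1.2. Per the labels' protocols ribosomal RNA was depleted, and libraries were pooled in 1 pool and sequenced in 150 paired-end cycles. How strand and reads with several matches were treated is not stated in the sources used here, and members that overlap another gene or have near-identical copies are uncertain. The 5 summary entries of each table stayed out of totals and tests. No column belonged to another sample.

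CPM is a gene's count over the sum of all gene rows, times 1000000. The members, lists and tests were chosen with earlier results of these data known. Each test fitted only the groups compared with edgeR 4.0.16 (R 4.3.3; TMM factors, filterByExpr with a minimum count of 10 and minimum total of 15, robust quasi-likelihood, two-sided), with Benjamini-Hochberg adjustment over all genes tested and a threshold of 0.05. DESeq2 1.42.0 and limma 3.58.1 (voom with quality weights) were alternatives, as were other scalings, filters, covariates and libraries left out in turn. The test scripts were tested on simulated data.

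Of 27607 identifiers 0 matched the annotation table used, so members were named by the rule for that case: by identifier, the 2 of lowest p with a higher and the 2 with a lower mean in unlimited liver; all others are given by rank. The planned gene lists, marker lists and promoter letters need names and were not analysed here. Members given by rank include the most abundant, the most and least variable and those of highest mammary level; ranks 91, 93, 152, 180, 187, 193 and 200 and the fat pad control libraries were picked after their values were seen.

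Samples with the same number in liver and parenchyma of unlimited calves deviated together (r = 0.107 to 0.225 over 14882 genes in 6 of 6 pairs, each highest with its own number). The 2 control pairs of liver and parenchyma did so too (r = 0.208 to 0.330), so these numbers pair the liver and parenchyma samples. For liver and fat pad of unlimited calves r was -0.0310 to 0.204. It was over 0.1 in 3 of 6 pairs, and 5 of 6 were highest with their own number.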

Additional observations from a re-analysis of the deposited data

Results flagged for a closer look

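Among 84 groups of 4 or 6 values taken from the members described, in 9 cases a single library stood apart by Dixon's test. Chance gives about 1 in 20 for values that were not picked. Many of these members were picked for extreme values, and the groups share libraries, so the 9 cases are not read against that rate. In liver the member of rank 67 stood at 1235 CPM in unlimited liver 11, where the other 5 unlimited livers held 15.7 to 249 CPM. Rank 137 stood at 1672 CPM in unlimited liver 6, where the others held 67.4 to 619 CPM. Rank 93 stood at 806 CPM in restricted liver 5, where the others held 432 to 520 CPM. The restricted livers also chose and ranked the members, so the case of rank 93 is a description only. Rank 3 stood at 30262 CPM in control liver 21, where the others held 12686 to 15454 CPM.

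The same member of rank 3 also stood apart in control fat pad 21, at 69.1 CPM, where the other control fat pads held 24.96 to 30.5 CPM. In control fat pad 18 the members of rank 200, 193 and 91 stood at 280 CPM, 88.2 CPM and 311 CPM, where the other 3 libraries held at most 1.08 CPM, 1.31 CPM and 0.455 CPM. In parenchyma the member of rank 16 stood at 1.98 CPM in unlimited library 3, where the others held 0 to 0.482 CPM.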

How the results depend on the processing

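For the counts that answer a comparison, 103 of 109 alternative values lay within 1.5 times the reported count. Those 103 include all the calls of members higher in liver than in mammary tissue, where most members had to differ. Their number therefore does not measure how stable the comparison of diets in liver was. The other 6 all concern unlimited over control liver, where edgeR called no member: DESeq2 called 3 higher and 2 lower (211 and 71 of all genes), limma voom 1 higher (36 of all genes), and leaving out unlimited livers 3 and 6 together (chosen after seeing the data) 1 higher (33 of all genes). Leaving out 1 library at a time gave 0 to 1 higher, the 1 without unlimited liver 6 (57 of all genes), and 0 to 1 lower, the 1 without unlimited liver 11 (3 of all genes). The causes were not tested. Leaving out each library in turn gave 199 to 200 members called higher in unlimited liver than in parenchyma, 199 to 200 than in fat pad, and 200 to 200 in control liver than in control parenchyma. With each liver library left out 183 to 187 members kept 50 times in unlimited calves, and with each liver or control fat pad library left out 180 to 188 did in control calves (fat pad left out after seeing the data). The replicate block uses the numbers in the titles as a block. With it 199, 199 and 200 members were called higher in liver than in unlimited parenchyma, unlimited fat pad and control parenchyma. No call changed. For fat pad the pairing by number was less clear than for parenchyma. Unlimited and control calves share no number. With CPM divided by TMM factors over all 47 libraries, the summed level was 33.6% in unlimited, 45.7% in restricted and 37.4% in control liver. These are scaled levels and not shares of the counts, which were 26.7%, 32.3% and 27.3%. Depth limits the mammary levels, where most members had few counts, and the 4 control livers limit the diet test.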
